A study of Homo sapiens with 18 samples.

Results

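The genes described here encode the epidermal growth factor receptor EGFR, its partner receptors ERBB2 and ERBB3, their ligands AREG, EREG, HBEGF, TGFA and NRG1, and the receptor inhibitor ERRFI1. These 9 genes were picked by name and found among the 62703 gene identifiers of the series by matching Ensembl identifiers to GENCODE symbols. The series profiled polyadenylated RNA of MDA-MB-231 cells, a long-established triple-negative breast cancer line, to ask which genes follow EZH2, the methyltransferase of Polycomb repressive complex 2, which follow its binding partner E2F1, a transcription factor of the cell cycle, and which follow the enzyme activity of EZH2. In the knockdown experiment, cells were transduced with lentivirus for 24 h and selected in puromycin at 2 ug/ml for 72 h, and carried a control hairpin (control shRNA) or 1 that targets EZH2 (shEZH2) or E2F1 (shE2F1). The drug experiment used no hairpin, and its cells received the solvent DMSO or GSK126, an inhibitor of the EZH2 enzyme, at 1 uM for 72 h. The 10 distinct libraries fell into these 5 groups of 2. The data come from 1 cell line with 1 hairpin per target, and the labels do not say whether replicates were separate cultures, so the p-values measure the spread between libraries, which may be technical.

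EGFR and its relatives sit in the plasma membrane and pair up when a ligand binds, which switches on their kinase domains and, through adaptor proteins, the RAS–ERK and PI3K–AKT pathways. ERBB2 binds no ligand of its own, and ERBB3 signals mainly through a partner because its kinase is weak. The ligands are made as membrane-anchored precursors that proteases such as ADAM17 cut free, and signalling is damped by inhibitors, phosphatases and ubiquitin ligases, of which several are induced by the pathway itself. EGFR is known for its abundance in many triple-negative breast cancers.

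The libraries held between 13198932 and 20055550 expected counts each. In the control shRNA libraries EZH2 was at 153 and 181 CPM (counts per 1000000, TMM-scaled), against 52.7 and 44.8 CPM in shEZH2. E2F1 was at 143 and 138 CPM in control shRNA, 26 and 22.5 CPM in shE2F1, and 62.5 and 32.3 CPM in shEZH2, so that the shEZH2 libraries were low in both targets. Of 4 genes typical of mesenchymal-type breast cancer cells, VIM (1280 to 3520 CPM) and CD44 (680 to 828 CPM) were abundant in every library. Of 5 luminal genes, PGR had no count in any library, ESR1 stayed at or below 0.216 CPM and FOXA1 at or below 0.288 CPM, while GATA3 lay between 8.7 and 16.4 CPM and CDH1 between 0.18 and 9.83 CPM. The summed level of the mesenchymal-type list was 4010 to 4430 CPM in control shRNA, 2230 to 2290 CPM in shEZH2 and 3540 to 3690 CPM in shE2F1. The luminal list summed to 12.6 to 16.1, 11.3 to 12.6 and 21 to 26.7 CPM in the same groups. VIM makes up most of the mesenchymal-type sum: in shEZH2 CD44 was at 742 and 828 CPM, against 680 and 798 CPM in control shRNA, and ZEB1 at 94 and 94.6 CPM, against 57.3 and 66.5 CPM. SNAI2 was lower in shEZH2, by a log2 change of −0.94. Whether these marker differences have a part in the changes given below was not tested.

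All 9 genes were expressed above the filter on low counts. In levels per length, in TPM (transcripts per 1000000), ERRFI1 led in control shRNA with 184 ± 0.488 TPM (SD, n = 2), and EGFR followed with 85.6 ± 9.21 TPM. NRG1, the neuregulin that binds ERBB3, was at 73.5 ± 9.31 TPM, and the EGFR ligands AREG, HBEGF and TGFA at 63 ± 9.86, 56.1 ± 0.933 and 46.4 ± 5.45 TPM. EGFR and NRG1, NRG1 and AREG, and AREG and HBEGF were neighbours in this order whose libraries overlapped. ERBB2 was at 30.9 ± 6.64 TPM. EREG, at 5.22 ± 1.51 TPM, and ERBB3, at 3.65 ± 1.77 TPM, were the lowest and overlapped each other. ERRFI1 was the highest of the 9 in control shRNA, shEZH2 and DMSO, and AREG in shE2F1 (187 ± 17.6 TPM) and GSK126 (282 ± 65.6 TPM). EREG and ERBB3 held the last places in all 5 groups.

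**Figure D1:**
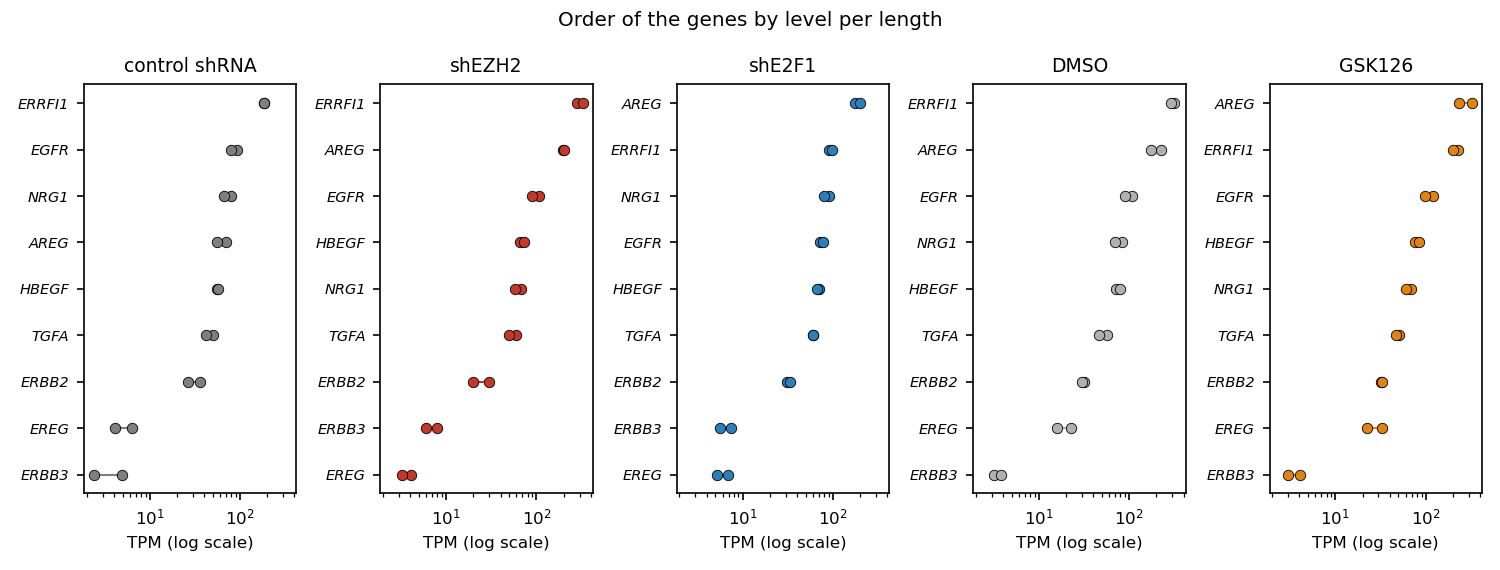
Level per length of the 9 genes in each group, in TPM on a logarithmic axis, with genes ordered by group mean from the highest at the top. Each point is 1 library and the line joins the replicates. AREG stood below ERRFI1, EGFR and NRG1 in control shRNA and above all others in shE2F1.

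On the GRCh38 genome, EGFR lies on the plus strand at chr7:55019017-55211628, ERBB2 at chr17:39687914-39730426 and ERBB3 at chr12:56076799-56103505. The ligand genes EREG (chr4:74365145-74388749) and AREG (chr4:74445136-74455005) are neighbours on the plus strand of chromosome 4 with a gap of 56.4 kb and no protein-coding gene between them. NRG1 lies on the plus strand at chr8:31639222-32855666. HBEGF (chr5:140332843-140346603), TGFA (chr2:70447284-70554193) and ERRFI1 (chr1:8004404-8026309) lie on the minus strand. Little of any transcript was shared with other genes, at most 1.13% of its 50-base stretches (NRG1). ERBB2 overlaps the antisense genes PGAP3 and MIEN1, which held 52 to 198 and 178 to 1080 counts per library, and without a stated strand setting these reads may have been counted together.

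The promoter windows of AREG, EREG and ERRFI1 are shown because AREG and ERRFI1 changed in the knockdowns and EREG is the neighbour of AREG. Each window runs from 250 bases before to 50 bases after the RefSeq start site (GRCh38.p14), 5′ to 3′ on the strand of the gene, and capitals mark matches to the motifs named afterwards.

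AREG (chr4:74444886-74445185, plus strand): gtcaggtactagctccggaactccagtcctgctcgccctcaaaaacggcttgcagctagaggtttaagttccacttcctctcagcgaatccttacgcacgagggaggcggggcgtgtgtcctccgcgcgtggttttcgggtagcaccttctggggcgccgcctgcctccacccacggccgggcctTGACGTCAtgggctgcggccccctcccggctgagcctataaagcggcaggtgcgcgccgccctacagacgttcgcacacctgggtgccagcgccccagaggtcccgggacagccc
EREG (chr4:74364895-74365194, plus strand): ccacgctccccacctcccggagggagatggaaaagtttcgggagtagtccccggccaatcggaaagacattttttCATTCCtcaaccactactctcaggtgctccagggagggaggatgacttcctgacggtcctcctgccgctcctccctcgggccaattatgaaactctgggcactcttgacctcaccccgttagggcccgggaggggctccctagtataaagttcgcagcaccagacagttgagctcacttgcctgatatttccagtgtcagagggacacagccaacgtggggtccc
ERRFI1 (chr1:8026260-8026559, minus strand): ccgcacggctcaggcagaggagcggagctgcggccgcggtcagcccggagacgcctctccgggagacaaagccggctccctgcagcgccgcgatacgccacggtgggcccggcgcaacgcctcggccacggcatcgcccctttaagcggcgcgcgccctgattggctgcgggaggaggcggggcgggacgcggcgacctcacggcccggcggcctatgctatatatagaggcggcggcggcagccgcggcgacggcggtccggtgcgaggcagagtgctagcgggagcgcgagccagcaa

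Each window was searched on both strands for the E2F strings TTTCCCGC, TTTCGCGC, TTTGCCGC and TTTGGCGC, the AP-1 string TGANTCA, the cyclic AMP response element (CRE) TGACGTCA and the TEAD string GGAATG, none of which contains another. RefSeq windows were searched for 7 of the 9 genes, with a second start site for EGFR and TGFA, and not for ERBB3 and NRG1. Windows on chromosome 8, where NRG1 lies, were left out of this search. The AREG window held the full CRE, a string present in 1.84% of 34943 windows of 300 bases. The EREG window held a TEAD match on the opposite strand, as 14% of windows did. The window of the downstream EGFR start held 2 AP-1 matches and a TEAD match, and the ERBB2 window held an AP-1 match (7.72% of all windows). No window of the 7 genes held an E2F string (3.3% of all windows), and the ERRFI1 window held none of the searched strings. These matches describe letters in the windows and say nothing of binding.

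The first comparison asked which of the genes followed loss of EZH2. Knockdown of EZH2 was accompanied by a rise of AREG, the amphiregulin ligand, by 2.75-fold and of the receptor ERBB3 by 2.12-fold, while EGFR was not called. In edgeR's quasi-likelihood test calls needed more than a 2-fold change and an adjusted p below 0.01, which held for 2 of the 9 genes, both higher. The same rule called 18.2% of all 15373 genes tested, so that 2 of 9 is near that background. The median log2 change of the 9 was 0.11, against −0.02 over all genes tested. In bulk RNA, a change in the share of cells that express a gene and a change in RNA per cell cannot be told apart.

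AREG was at 51.6 and 43.9 CPM in control shRNA and at 128 and 136 CPM in shEZH2. Both shEZH2 libraries stood well above both control libraries, and the log2 change was 1.46 (SE 0.107, adjusted p = 3.51e-06). Leaving out any 1 library gave log2 changes from 1.35 to 1.58.

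ERBB3 was at 9.06 and 6.66 CPM in control shRNA and at 14.8 and 18.8 CPM in shEZH2. The groups did not overlap, and the log2 change was 1.08 (SE 0.201, adjusted p = 0.000984), just past the fold needed. This call rested on single libraries, since the change was 0.89 without control shRNA replicate 2 and 0.92 without shEZH2 replicate 2, both under 2-fold. It was also lost, at 0.79 (adjusted p = 0.0522), when counts were scaled by RSEM's effective transcript length, which for ERBB3 was estimated between 2530 and 4080 bases across the libraries. On the TPM scale, ERBB3 was at 4.9 and 2.39 TPM in control shRNA and at 6.02 and 7.98 TPM in shEZH2.

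The other receptors were not called. ERBB2 was at 90.3 and 76.3 CPM in control shRNA and at 55.3 and 46.1 CPM in shEZH2. Both shEZH2 libraries were lower, with a log2 change of −0.73 (SE 0.125, adjusted p = 0.000571), which falls short of the 2-fold rule. In TPM the ERBB2 libraries overlapped, at 35.6 and 26.2 against 29.6 and 20 TPM. Under the other processing settings the ERBB2 log2 change ran from −0.743 to −0.508, with an adjusted p of up to 0.0351. EGFR was at 600 and 550 CPM in control shRNA and at 584 and 487 CPM in shEZH2, and the groups overlapped (log2 change −0.12, SE 0.105, adjusted p = 0.371). Under the other processing settings the EGFR log2 change ran from −0.446 to 0.0039, with an adjusted p between 0.00227 and 0.979.

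Apart from AREG, no ligand was called in shEZH2. EREG, epiregulin, was at 19.1 and 13 CPM in control shRNA and at 11 and 8.76 CPM in shEZH2. Its log2 change of −0.72 (SE 0.23, adjusted p = 0.0202) had the opposite sign to that of its neighbour AREG and did not pass. Under the other processing settings the EREG log2 change ran from −0.999 to −0.696, with an adjusted p between 0.000191 and 0.0347. HBEGF, the heparin-binding ligand, was at 83.6 and 91 CPM against 87.8 and 102 CPM, and TGFA at 99.8 and 101 CPM against 118 and 101 CPM. Both had log2 changes close to 0 (0.11 and 0.12). NRG1 was at 120 and 97.2 CPM in control shRNA and at 65.8 and 59.4 CPM in shEZH2. This is a log2 change of −0.81 (SE 0.118, adjusted p = 0.000201), under the 2-fold rule, with no overlap between the groups. In TPM the same NRG1 libraries overlapped, at 80.1 and 66.9 against 67 and 58.4 TPM, since the effective length of NRG1 was estimated at 2140 and 1980 bases in control shRNA and at 1590 bases in both shEZH2 libraries. With that length as an offset the NRG1 log2 change was −0.41 (adjusted p = 0.0195), and with a correction for GC content and length it was −1.26 (adjusted p = 1.63e-05), past the 2-fold rule.

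ERRFI1, also known as MIG6, binds the kinase domains of the EGFR family and blocks them. It was at 353 and 374 CPM in control shRNA and at 474 and 570 CPM in shEZH2. Both shEZH2 libraries were higher, and the log2 change was 0.51 (SE 0.0995, adjusted p = 0.00135), below the 2-fold rule.

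**Figure D2:**
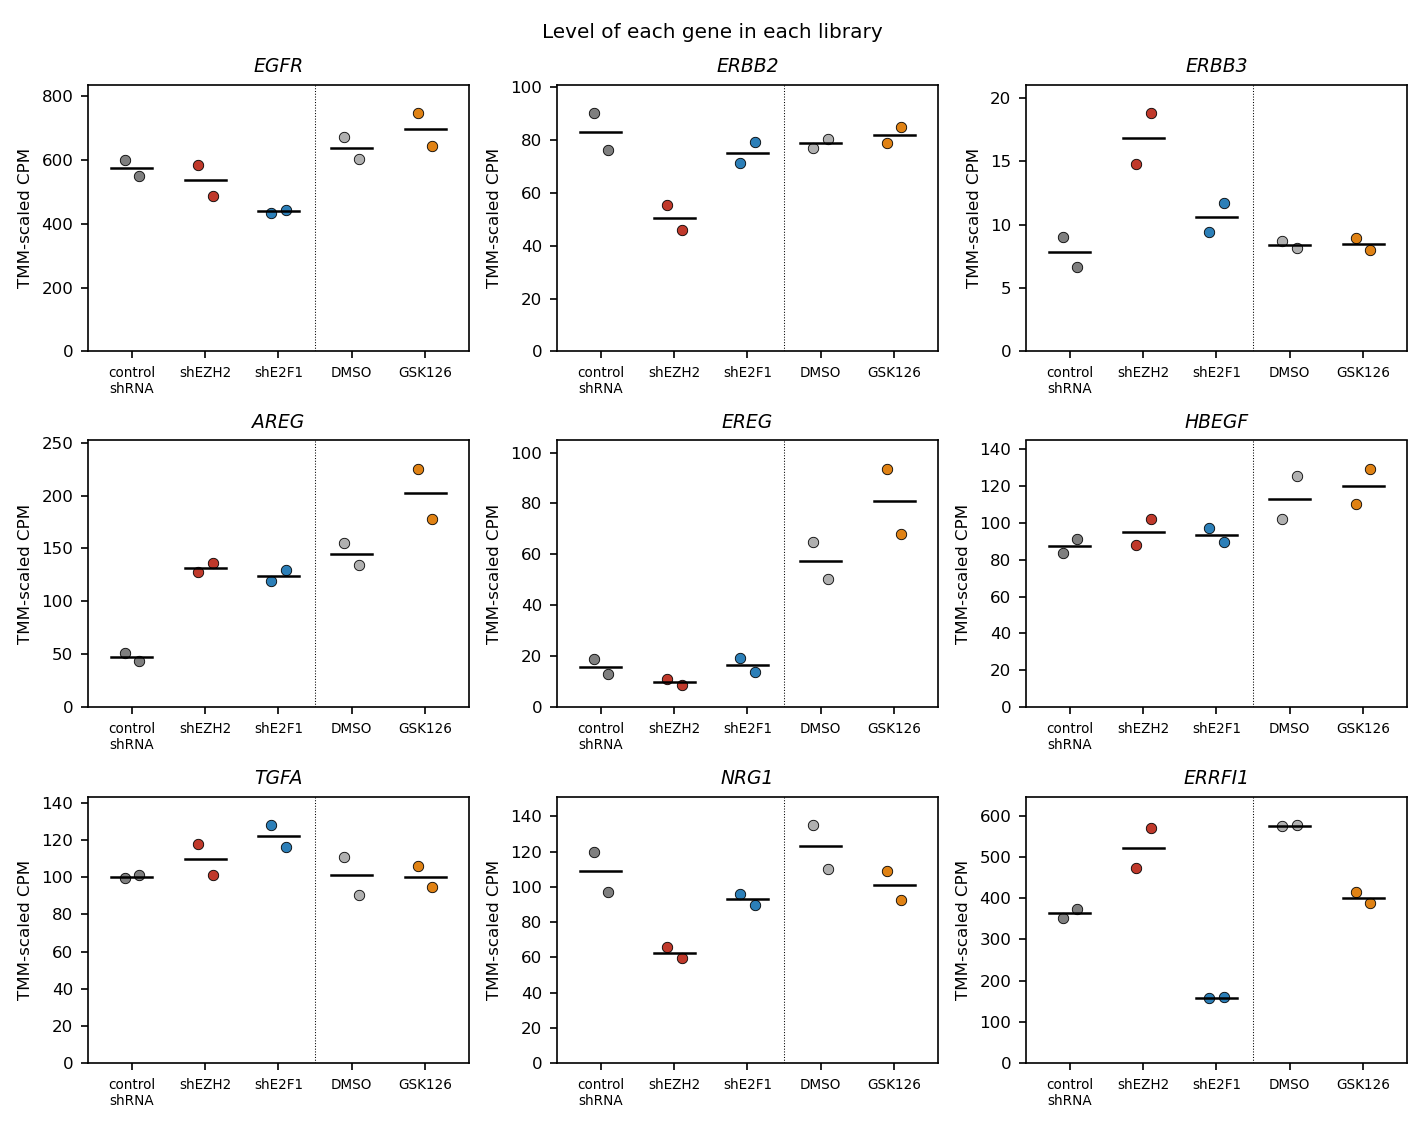
TMM-scaled CPM of each gene in each of the 10 libraries, with a panel per gene and a linear axis from 0. Points are libraries, horizontal bars are group means (n = 2), and the dotted line parts the knockdown from the drug experiment. AREG was near 50 CPM in control shRNA and above 110 CPM elsewhere, and ERRFI1 was lowest in shE2F1.

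Changes in the shEZH2 libraries also followed GC content. The median log2 change was 0.22 for the tenth lowest in GC content (at most 38.3%) and −0.51 for the tenth highest (at least 61.3%), against 0.01 and 0.03 for shE2F1. The longest transcripts of the 9 genes ranged from 36.1% GC (EREG) to 57.5% (ERBB2). After correction for GC content and length, AREG was at a log2 change of 1.42, ERBB3 at 1.02 and NRG1 at −1.26 in shEZH2.

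The second comparison asked which of the genes followed loss of E2F1. Knockdown of E2F1 was accompanied by a rise of AREG by 2.59-fold and a fall of the inhibitor ERRFI1 by 2.31-fold. These 2 of 9 genes were called, 1 in each direction, where 11.6% of the 15373 genes tested were called. The median log2 change of the 9 was 0.04, against 0.00 over all genes. The control shRNA libraries are the same as in the first comparison, so the results of the knockdowns are not independent.

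AREG was at 119 and 130 CPM in shE2F1, again far above the 51.6 and 43.9 CPM of control shRNA. Its log2 change was 1.37 (SE 0.107, adjusted p = 5.18e-06), and 1.27 to 1.49 without any 1 library. ERRFI1 was at 157 and 160 CPM in shE2F1, below both control libraries at 353 and 374 CPM. Its log2 change was −1.21 (SE 0.101, adjusted p = 8.38e-06), and it lay between −1.25 and −1.16 without any 1 library.

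No other gene of the family was called in shE2F1. EGFR was at 434 and 444 CPM, below both control libraries, with a log2 change of −0.40 (SE 0.105, adjusted p = 0.0103). TGFA was at 128 and 116 CPM, above both control libraries, with a log2 change of 0.28 (adjusted p = 0.0474). ERBB3 was at 9.45 and 11.7 CPM and NRG1 at 96.2 and 89.7 CPM, each just outside the range of the controls, with log2 changes of 0.41 (adjusted p = 0.123) and −0.23 (adjusted p = 0.125). For ERBB2 (71.2 and 79.2 CPM), EREG (19.5 and 13.9 CPM) and HBEGF (97.2 and 89.5 CPM) the libraries overlapped those of control shRNA, and the adjusted p ran from 0.321 to 0.886.

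**Figure D3:**
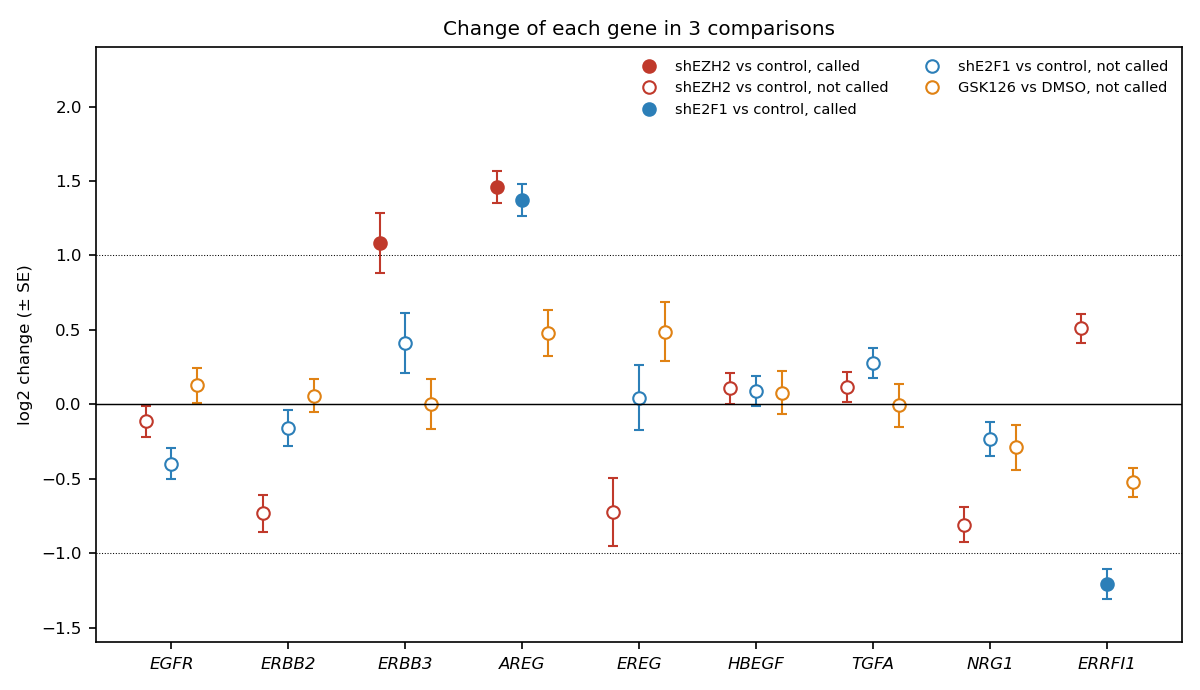
Log2 change of each gene in shEZH2 against control shRNA, shE2F1 against control shRNA and GSK126 against DMSO, with standard errors from edgeR. Filled points were called and dotted lines mark a 2-fold change. AREG was high in both knockdowns, and ERRFI1 was above 0 in shEZH2 and below −1 in shE2F1.

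Set directly against each other, shEZH2 and shE2F1 differed in ERRFI1. It was 3.28-fold higher in shEZH2 (474 and 570 CPM) than in shE2F1 (157 and 160 CPM), with a log2 difference of 1.72 (SE 0.103, adjusted p = 4.38e-07). This was 1 of 9 genes called, where 23.3% of all genes tested were called in this comparison. AREG did not differ detectably, with a log2 difference of 0.09 (SE 0.103, adjusted p = 0.492). ERBB2 and NRG1 were lower in shEZH2 by log2 differences of −0.57 (adjusted p = 0.00232) and −0.58 (adjusted p = 0.00155), both under 2-fold. Under the other processing settings that of ERBB2 ran from −0.608 to −0.362, with an adjusted p of up to 0.106. EREG (−0.77, adjusted p = 0.0135), ERBB3 (0.67, adjusted p = 0.0122) and EGFR (0.28, adjusted p = 0.037) missed the p threshold. With the correction for GC content and length, EREG (−1.05) and NRG1 (−1.07) passed both thresholds, and EGFR turned to −0.11.

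The third comparison asked which of the genes followed inhibition of the enzyme. GSK126 left all 9 genes uncalled, and called 0 of 14632 genes tested (0%) in edgeR, where 577 genes had an unadjusted p under 0.05 and DESeq2 called 11. The largest differences among the 9 were in EREG, AREG and ERRFI1. ERRFI1 was at 576 and 577 CPM in DMSO and at 415 and 388 CPM in GSK126. Both GSK126 libraries were lower, by log2 differences of −0.47 and −0.57 between libraries of the same number, and the fitted log2 change was −0.52 (SE 0.098, unadjusted p = 0.00147, adjusted p = 0.749). AREG was at 155 and 134 CPM in DMSO and at 225 and 178 CPM in GSK126. EREG was at 64.7 and 50.4 CPM in DMSO and at 93.5 and 68.2 CPM in GSK126. For these neighbouring ligand genes both GSK126 libraries stood above both DMSO libraries, with log2 changes of 0.48 and 0.49 (SE 0.154 and 0.2, both adjusted p = 1). Between libraries of the same number the log2 differences were 0.54 and 0.41 for AREG and 0.53 and 0.44 for EREG. This fit did not use the replicate numbers, and values from a fit with a replicate block are given further below.

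The receptors and the ligands HBEGF and TGFA were close to the solvent level. EGFR was at 671 and 603 CPM in DMSO and at 747 and 645 CPM in GSK126. NRG1 was at 135 and 110 CPM in DMSO and at 109 and 92.3 CPM in GSK126, a log2 change of −0.29 (SE 0.154). Both GSK126 libraries were thus below both DMSO libraries for NRG1, though 109 and 110 CPM nearly met. For ERBB2, ERBB3, HBEGF and TGFA the groups overlapped and the log2 changes lay between −0.01 and 0.08.

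Whether the effect of shEZH2 differed from that of GSK126 was tested as an interaction over all 10 libraries. ERBB3 and ERRFI1 differed, 2 of 9 genes, where 13.8% of 15773 genes were called. ERBB3 had a log2 difference of 1.09 (SE 0.278, adjusted p = 0.00904), and ERRFI1 of 1.04 (SE 0.152, adjusted p = 0.000356). ERRFI1 was above its control in shEZH2 and below its control in GSK126. AREG came close, with a difference of 0.99 (SE 0.191, adjusted p = 0.00186), just under 2-fold, and EREG had a difference of −1.20 (SE 0.324, adjusted p = 0.0122). ERBB2 was at −0.78 (adjusted p = 0.00511), under the 2-fold rule, and between −0.79 and −0.538 under the other processing settings (adjusted p up to 0.0987). The ERBB3 call was lost in 6 of the 8 fits that left out a library and, at 0.80 (adjusted p = 0.168), with the effective-length offset, and ERRFI1 was under 2-fold in 3 of those 8 fits and, at 0.95, with the correction for GC content and length. No gene of the family was called without shEZH2 replicate 2, and without GSK126 replicate 2 EREG was the gene called.

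The other receptors and ligands of the family were almost silent. NRG3 had no count in any library, and ERBB4, EPGN, NRG2 and NRG4 stayed at or below 0.485 CPM and were not tested. EGF and BTC passed the filter, at 0.106 to 2.22 CPM, and neither was called in any of the 5 comparisons.

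Of the 4 genes that release the ligands, the protease ADAM17 and its partner RHBDF2 were called in shEZH2 and none in shE2F1 or GSK126, where 18.2%, 11.6% and 0% of all genes were called. ADAM17, which cuts AREG, TGFA and HBEGF precursors, was at 53 and 47.7 CPM in control shRNA and at 110 and 133 CPM in shEZH2, a log2 change of 1.26 (SE 0.111, adjusted p = 9.03e-06). RHBDF2, an inactive rhomboid protein that takes part in the maturation of ADAM17, was at 32.4 and 29.3 CPM in control shRNA. In shEZH2 it was at 12.1 and 9.27 CPM, a log2 change of −1.55 (SE 0.159, adjusted p = 2.13e-05). The protease rose and RHBDF2 fell in the same libraries. RHBDF1, a relative of RHBDF2, was at 38.5 and 32.2 CPM in control shRNA. In shEZH2 it was level, at 33.2 and 34.2 CPM (log2 change −0.08, adjusted p = 0.552). In shE2F1 it was at 69.2 and 67.5 CPM, a log2 change of 0.94 (adjusted p = 6.84e-05), just under 2-fold. Directly between the knockdowns, ADAM17 (1.46) was higher in shEZH2, and RHBDF2 (−1.45) and RHBDF1 (−1.03) were lower.

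Of 10 adaptors and negative regulators, 3 were called higher in shEZH2 and 1 in shE2F1, and none was called lower, where 18.2% and 11.6% of all genes were called. The median log2 change of the list was 0.71 in shEZH2 and 0.03 in shE2F1. GAB1, a docking protein that couples receptors to PI3K, was at 7.74 and 5.88 CPM in control shRNA and at 26.1 and 24.6 CPM in shEZH2 (log2 change 1.88, adjusted p = 8.77e-06). LRIG3, of a family of membrane proteins that oppose ERBB receptors, rose in shEZH2 by a log2 change of 1.46, and the ubiquitin ligase CBLB by 1.15. CBLB also rose in shE2F1, from 10.8 and 8.76 CPM to 39.8 and 42.1 CPM, a log2 change of 2.06 (adjusted p = 2.07e-06). Between the knockdowns GAB1, LRIG3 and UBASH3B were called, all higher in shEZH2. These were 3 of 10 genes, where 23.3% of all genes were called. UBASH3B was at 200 CPM in each shEZH2 library and at 74.8 and 72.2 CPM in shE2F1. Against control shRNA (130 and 124 CPM) its log2 change in shE2F1 was −0.79 (adjusted p = 4.4e-05), and that of the ubiquitin ligase CBL was −0.70 (adjusted p = 8.65e-05), from 128 and 127 to 79.4 and 77.7 CPM, both short of the 2-fold rule.

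Of 12 genes that ERK signalling induces, 2 were called higher and 2 lower in shEZH2, and 1 higher and 1 lower in shE2F1, against 18.2% and 11.6% of all genes. Their median log2 change was −0.42 in shEZH2 and −0.69 in shE2F1, with 9 and 8 of the 12 below 0. DUSP5, a nuclear ERK phosphatase, was at 78.7 and 77.2 CPM in control shRNA, 269 and 313 CPM in shEZH2 and 183 and 190 CPM in shE2F1. It rose in both knockdowns, by log2 changes of 1.89 and 1.25. DUSP4, another such phosphatase, was at 410 and 328 CPM in control shRNA and fell to 139 and 103 CPM in shEZH2, while shE2F1 held 432 and 397 CPM. PHLDA1 fell in shEZH2 by a log2 change of −1.74 and IER3 rose by 1.02. FOSL1, a subunit of AP-1, fell in shE2F1, from 552 and 745 CPM to 276 and 290 CPM (log2 change −1.20). The feedback inhibitors SPRY4 and SPRY2 and the phosphatase DUSP6 were also lower in shE2F1, with log2 changes of −0.91, −0.83 and −0.79 (adjusted p from 7.06e-05 to 0.000126), short of the 2-fold rule. In shEZH2 the same genes were at −0.27, −0.60 and −0.88 (adjusted p = 0.0491, 0.000489 and 4.51e-05), also short of it. Between the knockdowns DUSP4 (log2 difference −1.79) and PHLDA1 (−1.13) were called, both lower in shEZH2. These were 2 of the 12 genes, where 23.3% of all genes were called. The interaction called 2 of the 12 genes higher (DUSP5 and IER3) and 3 lower (DUSP4, DUSP6 and PHLDA1), where 13.8% of all genes were called. DUSP6 was at −1.02 there (adjusted p = 0.000657). In GSK126 none of these 12 genes, nor of the shedding genes, adaptors and negative regulators, was called.

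**Figure D4:**
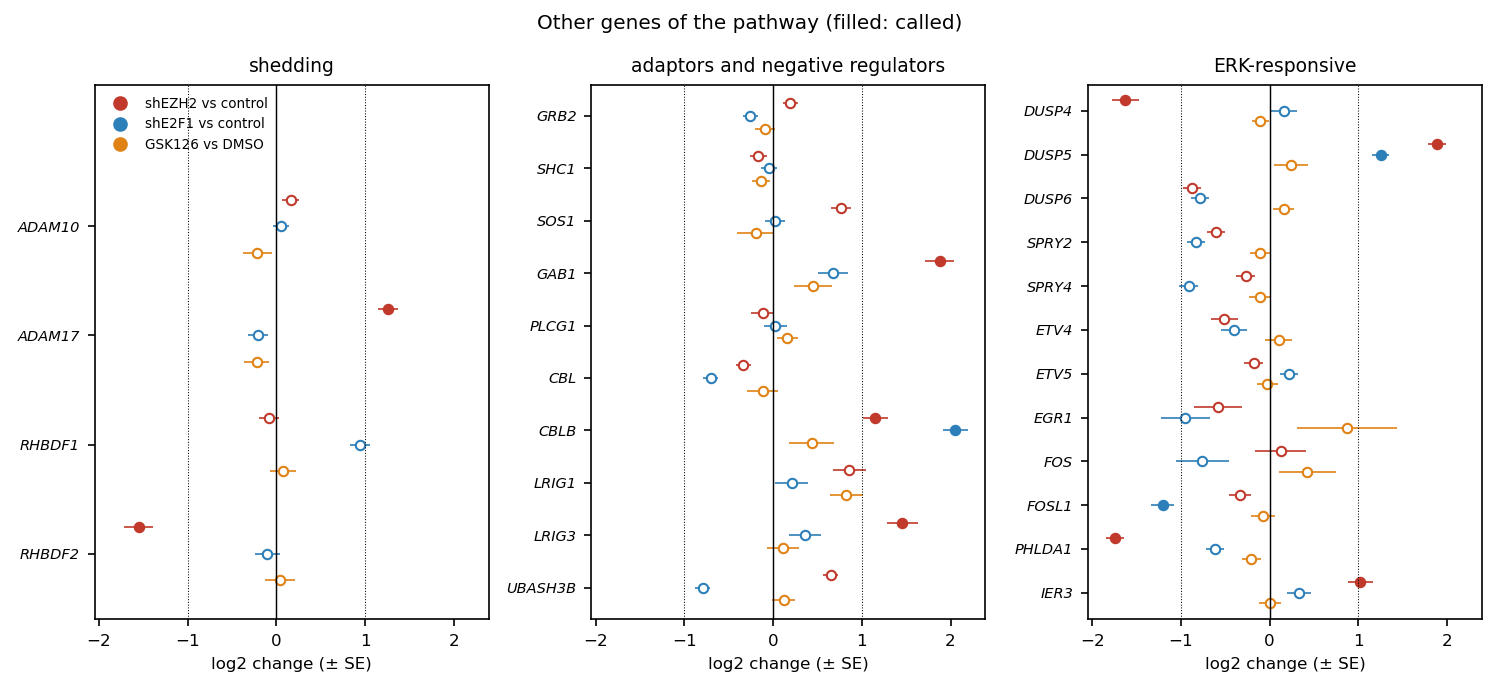
Log2 change with its standard error for the genes of ligand shedding, the adaptors and negative regulators, and the ERK-responsive genes in the same 3 comparisons. Filled points were called and dotted lines mark a 2-fold change. ADAM17 and RHBDF2 moved in opposite directions in shEZH2, as did DUSP5 and DUSP4.

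Among 11615 genes with a symbol and a mean of at least 50 counts, those whose centred log2 CPM over the 10 libraries lay nearest to AREG were LRATD2 and GFPT2, with root mean square differences of 0.16 and 0.187. Nearest to ERRFI1 were PHKB (0.162) and TM9SF4 (0.167). These are likenesses over libraries of 5 groups and carry no test.

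**Figure D5:**
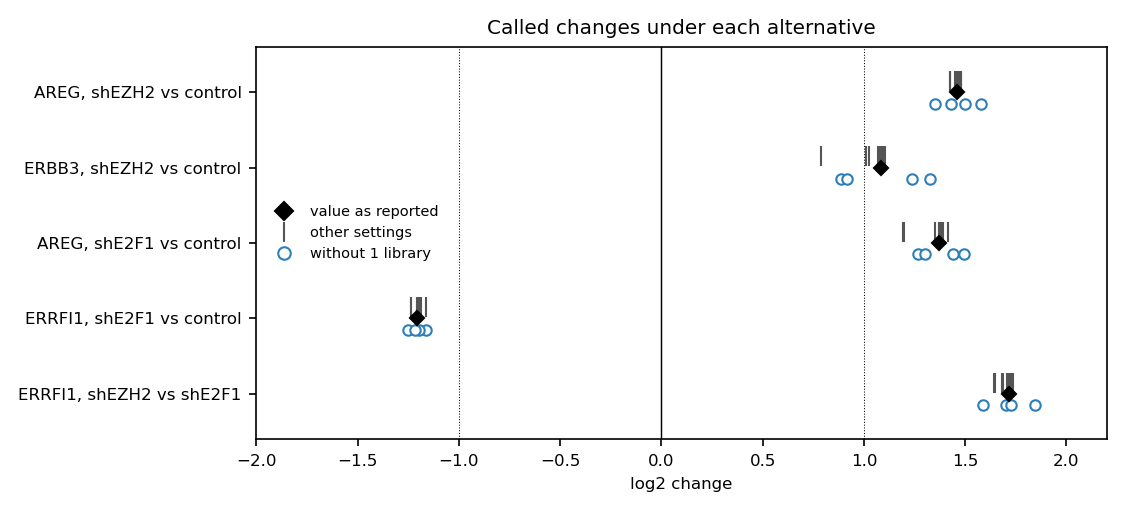
The called log2 changes of AREG, ERBB3 and ERRFI1 as reported (diamonds), under the other settings (vertical ticks) and without each library in turn (open circles), with dotted lines at a 2-fold change. The AREG and ERRFI1 values stayed beyond 2-fold in every case plotted, and some ERBB3 values fell below it.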

How the data were processed

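RNA-seq libraries of MDA-MB-231 cells were analysed. The 18 records include 8 exact repeats, which leaves 10 libraries in 5 groups. Per the study's methods, the authors mapped reads with STAR to hg38 with an Ensembl 108 annotation and quantified genes with RSEM. The submitters' processing notes name STAR 2.7.2b and RSEM 1.3.1. The deposited files hold RSEM expected counts, TPM and effective lengths per gene. The kit was strand-specific, and the strand setting of RSEM is not given in the sources used here. A read that maps to several genes was divided between them.

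Gene symbols and positions came from GENCODE 44 (99.9% of identifiers matched). Expected counts were rounded and tested in edgeR 4.0.16 (R 4.3.3) with filterByExpr, TMM scaling and quasi-likelihood F-tests, with p-values adjusted by Benjamini-Hochberg across every tested gene. Separate fits covered the 6 knockdown libraries, the 4 drug libraries and, for the interaction, all 10. The thresholds, an adjusted p under 0.01 and more than 2-fold, are those of the study, which used DESeq2 (here 1.42.0, as an alternative). CPM values are TMM-scaled. TPM served for levels between genes and, for ERBB2, ERBB3 and NRG1, was also set beside CPM between control shRNA and shEZH2. At these depths, by counting error alone, a gene without counts may lie as high as 0.15 to 0.227 CPM. Biological coefficients of variation were 0.0948 (knockdown) and 0.126 (drug).

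The 9 genes and the pathway lists were chosen with earlier results of these data known. From each list, called genes were named, with values for at most 2 per direction, and for each called gene of the 9 the 2 genes of nearest profile. The nearest profiles of ERBB3 are not reported here. CBL, CBLB, UBASH3B, RHBDF1, SPRY2, SPRY4 and DUSP6 are also named in shE2F1, in shEZH2, between the knockdowns or in the interaction, after their values were seen. Alternatives were other scaling, DESeq2, other filters, other sets of libraries in the fit, a replicate block, a correction for GC content and length by splines, an offset from effective length, a looser threshold and leaving out each library. On simulated counts with 200 genes changed, the steps recovered 97% to 100% of genes per fold size with 0 false calls. The changed genes had means above 50 counts and log2 changes of 1.5 or 2 in size. All genes were given 1 fixed dispersion. Changes near 2-fold, such as those of ERBB3, were therefore not covered by the simulation. Promoter windows were RefSeq's.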

Additional observations from a re-analysis of the deposited data

Results flagged for a closer look

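ERRFI1 responded differently to the hairpins, with a log2 effect of shEZH2 minus that of shE2F1 of 1.72 (adjusted p = 4.38e-07). Both shEZH2 libraries were above the control shRNA libraries and both shE2F1 libraries below them. ERRFI1 also differed between shEZH2 and GSK126, with a log2 effect of the knockdown minus that of the inhibitor of 1.04 (adjusted p = 0.000356), and without any 1 library this difference lay between 0.91 and 1.17, under 2-fold in 3 of 8 cases. ERBB3 differed in the same test, by 1.09 (adjusted p = 0.00904), and between 0.89 and 1.33 without any 1 library, with an adjusted p of up to 0.048, and no longer passed in 6 of 8 cases. With the effective-length offset it was 0.80 (adjusted p = 0.168). The knockdown and drug experiments differ in transduction and selection, which cannot be told apart from other differences between them. With 2 libraries in each group, no library could be tested for standing apart from its group.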

How the results depend on the processing

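Of 684 single log2 changes under an alternative, 599 kept their direction and their side of the thresholds, 36 newly passed, 16 no longer passed and 33 changed sign. The looser threshold is among these alternatives and was applied to the main values without a new fit. Part of the 36 therefore passed only because the threshold was loosened. No value that changed sign had an adjusted p under 0.301 after the change, and the cause was not tested. AREG and ERRFI1 stayed called in shE2F1, AREG in shEZH2, and ERRFI1 between the knockdowns, under every alternative run.

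The number of the 9 genes called moved under some settings. DESeq2 called 4 in the interaction. The correction for GC content and length called 3 between the knockdowns (EREG, NRG1 and ERRFI1), with and without the block. The effective-length offset called 1 in shEZH2. At an adjusted p under 0.05 with any fold, 6 were called in shEZH2, 4 in shE2F1, 6 between the knockdowns and 5 in the interaction. Of all genes tested, 55.6%, 44.7%, 60.3% and 36.6% passed in the same comparisons. For the other settings in this paragraph the share of all genes is not given, so those counts have no background beside them. Leaving out each library gave 1 to 2 in shEZH2 and 0 to 3 in the interaction. In CPM instead of TPM, 4 of the 9 genes kept the same order of the 5 groups.

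Replicate numbers did not pair the knockdown libraries: the differences between replicates correlated across 11012 genes at 0.02, 0.07 and 0.19. For DMSO and GSK126 the correlation was 0.78, from 1 pair of groups whose labels give no shared day or batch. With the replicate block, GSK126 called 68 genes, none of them among the 9, and the values of ERRFI1 (−0.52, adjusted p = 3.17e-16), AREG (0.47, adjusted p = 6.14e-12) and EREG (0.49, adjusted p = 5.03e-09) stayed under 2-fold, with 1 residual degree of freedom. The block with the GC correction called 53 genes, and leaving out a library 37 to 43. In the interaction the block lost ERBB3 (adjusted p = 0.011) and gained AREG (1.00) and EREG (−1.17). It changed no other call among the 9.

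Sign changes were as follows. ERBB3 in GSK126 was −0.0034 with DESeq2 size factors, −0.0032 with DESeq2, −0.010 without a filter, −0.013 and −0.012 with the GC correction without and with the block, and −0.0048 with the effective-length offset. HBEGF between the knockdowns was −0.013 without a filter and −0.017 with a mean of 50 counts. With the GC correction, without and with the block, TGFA was −0.022 and −0.025 in shEZH2 and −0.0052 and −0.011 in the interaction, and EGFR was −0.11 and −0.11 between the knockdowns. The effective-length offset gave 0.0039 for EGFR in shEZH2 and 0.00042 for NRG1 in shE2F1.

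Without each library in turn, values that changed sign ranged from −0.25 to 0.025 (EGFR) and −0.00022 to 0.24 (TGFA) in shEZH2, from −0.22 to 0.35 (EREG) in shE2F1, and from −0.084 to 0.12 (HBEGF) between the knockdowns. In GSK126 they ranged from −0.081 to 0.089 (ERBB3), −0.046 to 0.22 (HBEGF) and −0.15 to 0.16 (TGFA), and in the interaction from −0.11 to 0.17 (HBEGF) and −0.022 to 0.27 (TGFA). Where a group was left with 1 library, that library was assumed to vary like the others. ERBB3, at 111 to 326 counts per library, and EREG, at 146 to 406 counts in the knockdown experiment, had the largest standard errors of the 9 genes there.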

Other observations

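The control groups of the experiments differed in ligand levels, which no comparison of the design covers. EREG was at 64.7 and 50.4 CPM in DMSO and at 19.1 and 13 CPM in control shRNA, a ratio of means of 3.58. AREG was at 155 and 134 CPM in DMSO and at 51.6 and 43.9 CPM in control shRNA, a ratio of 3.03, so that the AREG level of the shEZH2 and shE2F1 libraries (119 to 136 CPM) came near that of untransduced cells in DMSO. The ratio was 1.59 for ERRFI1 and 1.3 for HBEGF, and between 0.946 and 1.13 for EGFR, ERBB2, ERBB3, TGFA and NRG1. These ratios were not tested, and transduction, selection, solvent and the experiment itself cannot be told apart in them.

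CDH1, an epithelial adhesion gene, was at 0.848 and 0.18 CPM in control shRNA, 2.41 and 2.65 CPM in shEZH2 and 9.83 and 6.42 CPM in shE2F1, and was called in both knockdowns (log2 changes 2.23 and 3.91). VIM fell in shEZH2, from 3220 and 3520 CPM to 1420 and 1280 CPM (log2 change −1.33). SNAI2 was lower in shEZH2 too (log2 change −0.94, adjusted p = 0.000898), short of the 2-fold rule. Other markers of these lists did not go the same way in shEZH2. ZEB1 had a log2 change of 0.60 (adjusted p = 0.000979), CD44 of 0.07 (adjusted p = 0.56) and the luminal gene GATA3 of −0.57 (adjusted p = 0.0156). SNAI2 fell in shE2F1, from 55 and 42.8 CPM to 21.4 and 22.5 CPM (log2 change −1.16). There ZEB1 had a log2 change of −0.53 (adjusted p = 0.003) and VIM of −0.27 (adjusted p = 0.0397). CD44 was level in shE2F1 (adjusted p = 0.998), and GATA3 had a log2 change of 0.14 (adjusted p = 0.509).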
